A study of Mus musculus with 8 samples.

Results

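Cholesterol synthesis, sterol transport and the control of SREBP-2 were examined in mouse liver through 28 genes, listed by symbol and all found once among the 55401 gene identifiers of the count table. Of these, 19 encode enzymes of the route from acetyl-CoA to cholesterol and its prenyl branch, 4 encode SREBP-2 or proteins that hold or release it, and 5 act in sterol transport, receptor turnover or esterification. The livers came from NOD Scid Gamma (NSG) mice, which lack functional T, B and natural killer cells, and every host bore a subcutaneous xenograft of a human colorectal cancer line. In 4 libraries the tumour was Colo201, which the series gives as rich in FGF19, and in 4 it was HCT116, given as poor in it. Libraries carry a number and the letter L or R: for Colo201 number 2 is labelled male and number 4 female, and for HCT116 number 1 is labelled male and number 3 female, with 2 libraries per number. The ages of the mice and the time the tumours grew are not given in the labels. No host was free of tumour, each line stands for 1 tumour model, and the contribution of FGF19 and that of any other difference between the lines cannot be told apart.

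Cells make cholesterol by joining acetyl-CoA units into mevalonate, turning mevalonate into isoprenyl units, joining these into squalene, folding squalene into lanosterol and trimming lanosterol to cholesterol. SREBP-2, encoded by Srebf2, is the transcription factor that turns on most of these enzymes. Scap carries it to the Golgi for cleavage when membrane sterol is low, and the Insig proteins hold Scap in the endoplasmic reticulum when sterol is high. In liver the product also feeds bile acid synthesis, which FGF19 represses.

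The libraries held 61347603 to 65457482 estimated counts, with 19370 to 20272 genes above 0. Levels are given in CPM, counts scaled to a common library size with the TMM factors of edgeR, and single libraries in the order 2L, 2R, 4L, 4R for Colo201 and 1L, 1R, 3L, 3R for HCT116. Cyp7a1, the rate-limiting bile acid enzyme, stood at 0.297 to 3.61 CPM in the Colo201 libraries and 181 to 223 CPM in the HCT116 libraries. The sex labels are used only as labels, because the libraries labelled male held 253 to 366 CPM of Xist and at most 0.0742 CPM of any of 4 Y-linked genes, while those labelled female held 0.276 to 0.805 CPM of Xist and 9.06 to 63.5 CPM of each of the 4. Nothing in the labels tells whether the L and R libraries of a number are different animals, so the p-values measure only how far these libraries spread, and that spread may be technical. Hepatocyte markers (7 genes, Alb among them) summed to 133265 to 176972 CPM in Colo201 and 111429 to 151740 CPM in HCT116. Colo201 4R stood apart in other cell types, with a cholangiocyte marker sum of 63.0 CPM against 27.8 to 38.7 CPM in the other libraries, and a Kupffer cell marker sum of 190 CPM against 315 to 536 CPM.

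Promoters of 22 of the 28 genes were matched in RefSeq (GRCm38.p6), 28 promoters in all, each of 300 bases from 250 before to 50 after the first base of the annotated transcript. Promoters are shown for Hmgcs1, Mvk, Mvd, Dhcr7 and Srebf2, since these are genes whose RNA rose in hosts of Colo201 and for which the table holds an entry. Capitals mark CCAAT boxes, read as CCAAT or ATTGG according to strand, which bind the SREBP partner NF-Y, and the core of the sterol regulatory element, TCACNCCAC, which binds SREBP itself. Dhcr7 has 3 annotated starts, and the one shown is the only one of them with a CCAAT box.
Hmgcs1 (chr13:119690101-119690400, plus strand): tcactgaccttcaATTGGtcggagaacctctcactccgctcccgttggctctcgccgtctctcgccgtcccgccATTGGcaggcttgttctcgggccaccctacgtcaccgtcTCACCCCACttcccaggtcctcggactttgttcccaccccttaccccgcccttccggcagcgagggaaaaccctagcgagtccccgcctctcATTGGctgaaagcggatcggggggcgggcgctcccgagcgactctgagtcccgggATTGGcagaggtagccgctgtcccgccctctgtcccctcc
Mvk (chr5:114444019-114444318, plus strand): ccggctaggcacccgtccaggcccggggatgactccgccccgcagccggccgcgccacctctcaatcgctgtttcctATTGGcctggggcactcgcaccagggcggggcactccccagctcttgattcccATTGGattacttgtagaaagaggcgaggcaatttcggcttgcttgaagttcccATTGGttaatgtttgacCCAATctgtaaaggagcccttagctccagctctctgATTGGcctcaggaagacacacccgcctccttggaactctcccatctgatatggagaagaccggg
Mvd (chr8:122443373-122443672, minus strand): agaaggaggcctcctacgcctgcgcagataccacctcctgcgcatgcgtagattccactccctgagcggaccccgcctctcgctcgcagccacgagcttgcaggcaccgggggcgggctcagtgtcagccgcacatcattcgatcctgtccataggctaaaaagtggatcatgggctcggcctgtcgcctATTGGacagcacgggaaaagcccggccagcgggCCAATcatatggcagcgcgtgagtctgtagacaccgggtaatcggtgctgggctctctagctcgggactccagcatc
Dhcr7 (chr7:143829964-143830263, plus strand): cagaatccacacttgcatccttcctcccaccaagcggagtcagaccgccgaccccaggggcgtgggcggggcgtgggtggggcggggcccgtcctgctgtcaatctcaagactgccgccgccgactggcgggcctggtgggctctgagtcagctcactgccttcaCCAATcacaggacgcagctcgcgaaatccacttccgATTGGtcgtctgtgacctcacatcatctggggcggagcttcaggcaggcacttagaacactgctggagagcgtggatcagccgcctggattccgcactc
Srebf2 (chr15:82147019-82147318, plus strand): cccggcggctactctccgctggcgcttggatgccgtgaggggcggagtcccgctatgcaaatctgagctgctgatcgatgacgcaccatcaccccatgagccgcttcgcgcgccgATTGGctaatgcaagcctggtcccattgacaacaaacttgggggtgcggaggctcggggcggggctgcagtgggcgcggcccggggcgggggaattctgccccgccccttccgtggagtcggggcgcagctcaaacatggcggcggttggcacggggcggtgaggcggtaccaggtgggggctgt

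A CCAAT box on either strand was present in at least 1 promoter of 20 of the 22 matched genes (90.9%), against 41.0% of the 26742 genes of the promoter table, expressed in liver or not. Mvk had 5, Hmgcs1 and Nsdhl 4 each, and Acat2 and Scap none. The GC box GGGCGG, on either strand, was likewise present for 20 of the 22 genes (90.9%), against 38.5%. The core TCACNCCAC was present for 1 gene, Hmgcs1, as TCACCCCAC with its leftmost base at position -137 from the start, or 4.55% against 1.43%. Matches of different motifs shared bases in 0 cases. A match is a description of these letters only, and an absent match says nothing about binding elsewhere or to other letters.

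**Figure D1:**
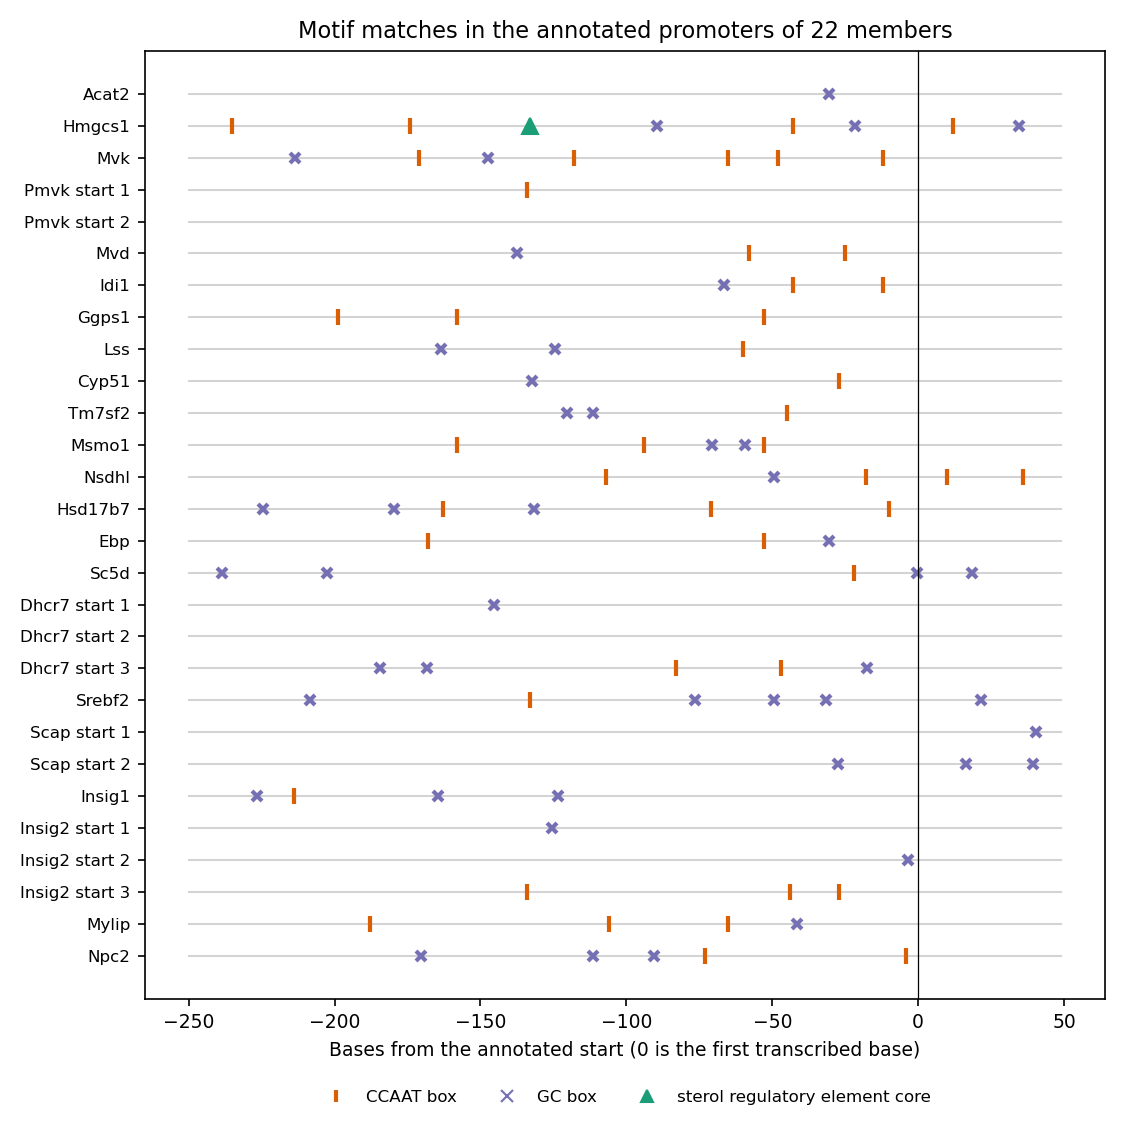
Positions of CCAAT boxes, GC boxes and the sterol regulatory element core in the 28 promoters of 22 genes, in bases from the annotated start; each grey line is 1 promoter and starts of a gene are numbered by coordinate. CCAAT boxes are spread from 237 bases before the start to 34 after it, and the sterol element core is present in Hmgcs1.

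In hosts of Colo201 6 of the 28 genes rose against hosts of HCT116 (Hmgcs1, Mvk, Mvd, Fdps, Dhcr7 and Srebf2; 21.4%), where 2.48% of all 17669 genes tested were called higher, and 22 did not pass (edgeR quasi-likelihood test, adjusted p under 0.05 over all genes). All 28 genes passed the filter on low counts. None of the 28 was called lower by edgeR or limma voom, against 2.3% of all genes in edgeR. At an unadjusted p under 0.05 edgeR had 20 genes of the pathway higher and 2 lower (11.0% and 10.7% of all genes), and DESeq2 called 15 higher and 1 lower (5.49% and 5.79% of all genes); voom called 7 higher (2.85% of all genes; 2.82% lower). At an adjusted p under 0.01 edgeR called 3, Mvk, Mvd and Dhcr7 (0.232% of all genes). The log2 fold change was above 0 for 25 of the 28 (50.1% of all genes), with a median of 0.57 against 0.00 over all genes tested. The 19 enzymes had a median log2 fold change of 0.69 and the other 9 genes one of 0.10. These genes were chosen with earlier results of the same libraries known, so the counts describe the list and do not test it. In bulk tissue, fewer cells of a type and less RNA per cell cannot be told apart.

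**Figure D2:**
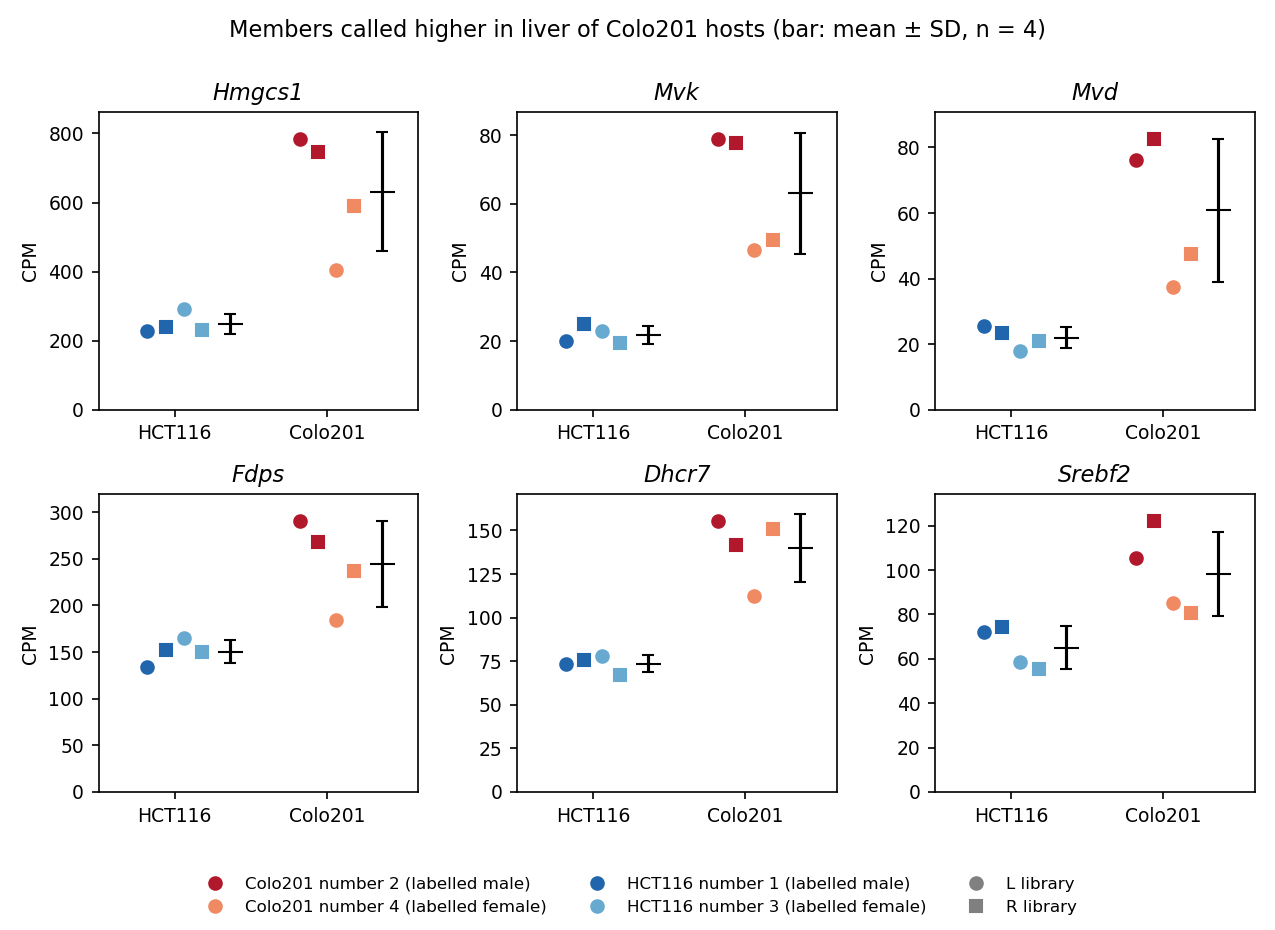
CPM of the 6 genes that rose, for each library (colour: title number; circle or square: L or R), with mean and SD over 4 libraries per line. The 4 Colo201 libraries lie above the 4 HCT116 libraries for each of the 6 genes, and number 2 has a higher mean than number 4.

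Of the 2 genes on the way to mevalonate 1 rose, Hmgcs1, and Acat2 did not pass. Hmgcs1, the synthase that forms HMG-CoA, stood at 784, 747, 406 and 590 CPM in Colo201 and at 228, 241, 292 and 230 CPM in HCT116. Its groups did not overlap, and the lowest Colo201 library was 4L. The means were 632 ± 172 and 248 ± 30.2 CPM (SD, n = 4 each), a ratio of 2.55, and the log2 fold change was 1.32 (SE 0.19, adjusted p = 0.0117, edgeR). Acat2, the cytosolic thiolase that supplies acetoacetyl-CoA to Hmgcs1, ranged from 129 to 236 CPM in Colo201 and from 105 to 156 CPM in HCT116. Those ranges overlapped, and the log2 fold change of 0.50 (SE 0.19) did not pass (adjusted p = 0.166). Hmgcs1 (ENSMUSG00000093930) lies on chromosome 13 from 119690379 to 119708260 in GRCm38.

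Mevalonate kinase Mvk, which adds the first phosphate to mevalonate, had the largest log2 fold change of the 28. It stood at 78.9, 77.8, 46.4 and 49.4 CPM in Colo201 and at 19.99, 25.1, 23.0 and 19.4 CPM in HCT116. Both numbers of Colo201 lay above every HCT116 library, and number 2 lay above number 4. The mean ratio was 2.89 and the log2 fold change 1.49 (SE 0.15, adjusted p = 0.00381, edgeR), which placed Mvk 23rd by p among 17669 genes. Mvd, the decarboxylase that makes isopentenyl diphosphate, was also higher in number 2 than in number 4, with 76.1, 82.5, 37.4 and 47.5 CPM in Colo201. In HCT116 it stood at 25.6, 23.5, 17.9 and 21.1 CPM, so the groups did not overlap. Its log2 fold change was 1.41 (SE 0.15, adjusted p = 0.00429).

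Pmvk, the kinase between Mvk and Mvd, did not pass (log2 fold change 0.41, SE 0.15, adjusted p = 0.155). It was at 70.8 and 85.4 CPM in Colo201 2L and 2R, but at 48.9 and 48.8 CPM in 4L and 4R, inside the HCT116 range of 39.6 to 52.8 CPM. Idi1 interconverts the isoprenyl diphosphates. Its Colo201 libraries, at 198 to 394 CPM, lay above the HCT116 libraries without overlap, yet the log2 fold change of 1.21 (SE 0.43) did not pass (adjusted p = 0.146). HCT116 1R, at 39.0 CPM, lay far below the 134, 165 and 184 CPM of HCT116 1L, 3L and 3R. In GRCm38, Mvk (ENSMUSG00000041939) lies on chromosome 5 from 114444269 to 114460591 and Mvd (ENSMUSG00000006517) on chromosome 8 from 122433601 to 122443422.

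At the branch of prenyl chains, Fdps rose and Ggps1 did not pass, and the difference between their changes was not tested. Fdps, which makes farnesyl diphosphate for sterols and prenylation alike, stood at 290.1, 269, 184 and 237 CPM in Colo201 and at 134, 153, 165 and 149.97 CPM in HCT116. The groups did not overlap, by the smallest margin in Colo201 4L. The log2 fold change was 0.69 (SE 0.14, adjusted p = 0.0317, edgeR). This call was lost without any single library other than Colo201 4L, with adjusted p of 0.0588 to 0.0982, and without the sex label as a covariate (adjusted p = 0.061). Ggps1, which extends farnesyl to geranylgeranyl diphosphate for protein prenylation, was at 5.95 to 6.93 CPM in Colo201 and 6.32 to 7.12 CPM in HCT116, and its log2 fold change, -0.11 (SE 0.12), did not pass (adjusted p = 0.639). Ggps1 overlaps Arid4b on the opposite strand, and the strand setting of the counting is not given in the sources used here. Fdps (ENSMUSG00000059743) lies on chromosome 3 from 89093588 to 89101959.

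The 3 enzymes that make squalene and close it to lanosterol had similar log2 fold changes, and none passed in the edgeR fit used throughout. Squalene synthase Fdft1 was at 325, 311, 121 and 220.3 CPM in Colo201 against 103 to 146 CPM in HCT116, so only 4L lay inside the HCT116 range. The fitted log2 difference was 0.95 (SE 0.25, adjusted p = 0.0712). Sqle, the epoxidase and a second control point of the pathway, stood at 216, 193, 99.9 and 156 CPM in Colo201, above the HCT116 range of 73.8 to 98.8 CPM by a narrow margin in 4L. Its log2 fold change was 0.89 (SE 0.21, adjusted p = 0.0503). Sqle passed with all libraries in limma voom (adjusted p = 0.0417). In edgeR it passed with upper-quartile scaling (0.0465), a filter of 1 CPM in 4 libraries (0.0425) or counts divided by 4 (0.0407). It did not with DESeq2 size factors (0.0509), without a filter (0.0545), without the sex label (0.0756), with L and R summed or on log2 FPKM. DESeq2 called all 3 enzymes higher (adjusted p = 0.000477 for Sqle). Lss, the cyclase, was at 70.1 to 175 CPM in Colo201 and 53.9 to 79.9 CPM in HCT116 (log2 fold change 0.80, SE 0.23, adjusted p = 0.0829). Without Colo201 4L, Fdft1 and Sqle passed (adjusted p = 0.027 and 0.0239), as did Sc5d of the later steps (adjusted p = 0.0324). In that fit 9 of the 28 genes were called higher, as were 116 of all 17669 genes. Fdft1 overlaps Ctsb on the opposite strand, which had 51505 counts per library on average against 11516 for Fdft1 and a log2 fold change of 0.17 (adjusted p = 0.296).

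Of the 8 enzymes from lanosterol to cholesterol 1 rose, Dhcr7, and 7 did not pass, although all 8 log2 fold changes were above 0. Dhcr7, the reductase of the last step from dehydrocholesterol, stood at 155, 142, 112 and 151 CPM in Colo201 and at 73.4, 75.9, 78.2 and 66.9 CPM in HCT116. The groups lay far apart, and here number 4 was close to number 2. The log2 fold change was 0.93 (SE 0.11, adjusted p = 0.00666, edgeR). Lanosterol demethylase Cyp51 split within Colo201, with 376 and 385 CPM in 2L and 2R but 171 and 227 CPM in 4L and 4R, where HCT116 ranged from 151 to 188 CPM. It did not pass (log2 fold change 0.68, SE 0.19, adjusted p = 0.0816). The demethylation enzymes Msmo1 (0.56, adjusted p = 0.111), Nsdhl (0.71, adjusted p = 0.0684) and Hsd17b7 (0.41, adjusted p = 0.114), and the desaturase Sc5d (0.60, adjusted p = 0.0715), had log2 fold changes in the same direction with overlapping groups. The sterol reductase Tm7sf2 (0.16, adjusted p = 0.382) and the isomerase Ebp (0.08, adjusted p = 0.572) had the smallest of the 8. Ebp was at 185 to 231 CPM in Colo201 and 182 to 217 CPM in HCT116. Dhcr7 (ENSMUSG00000058454) lies on chromosome 7 from 143823145 to 143848410.

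**Figure D3:**
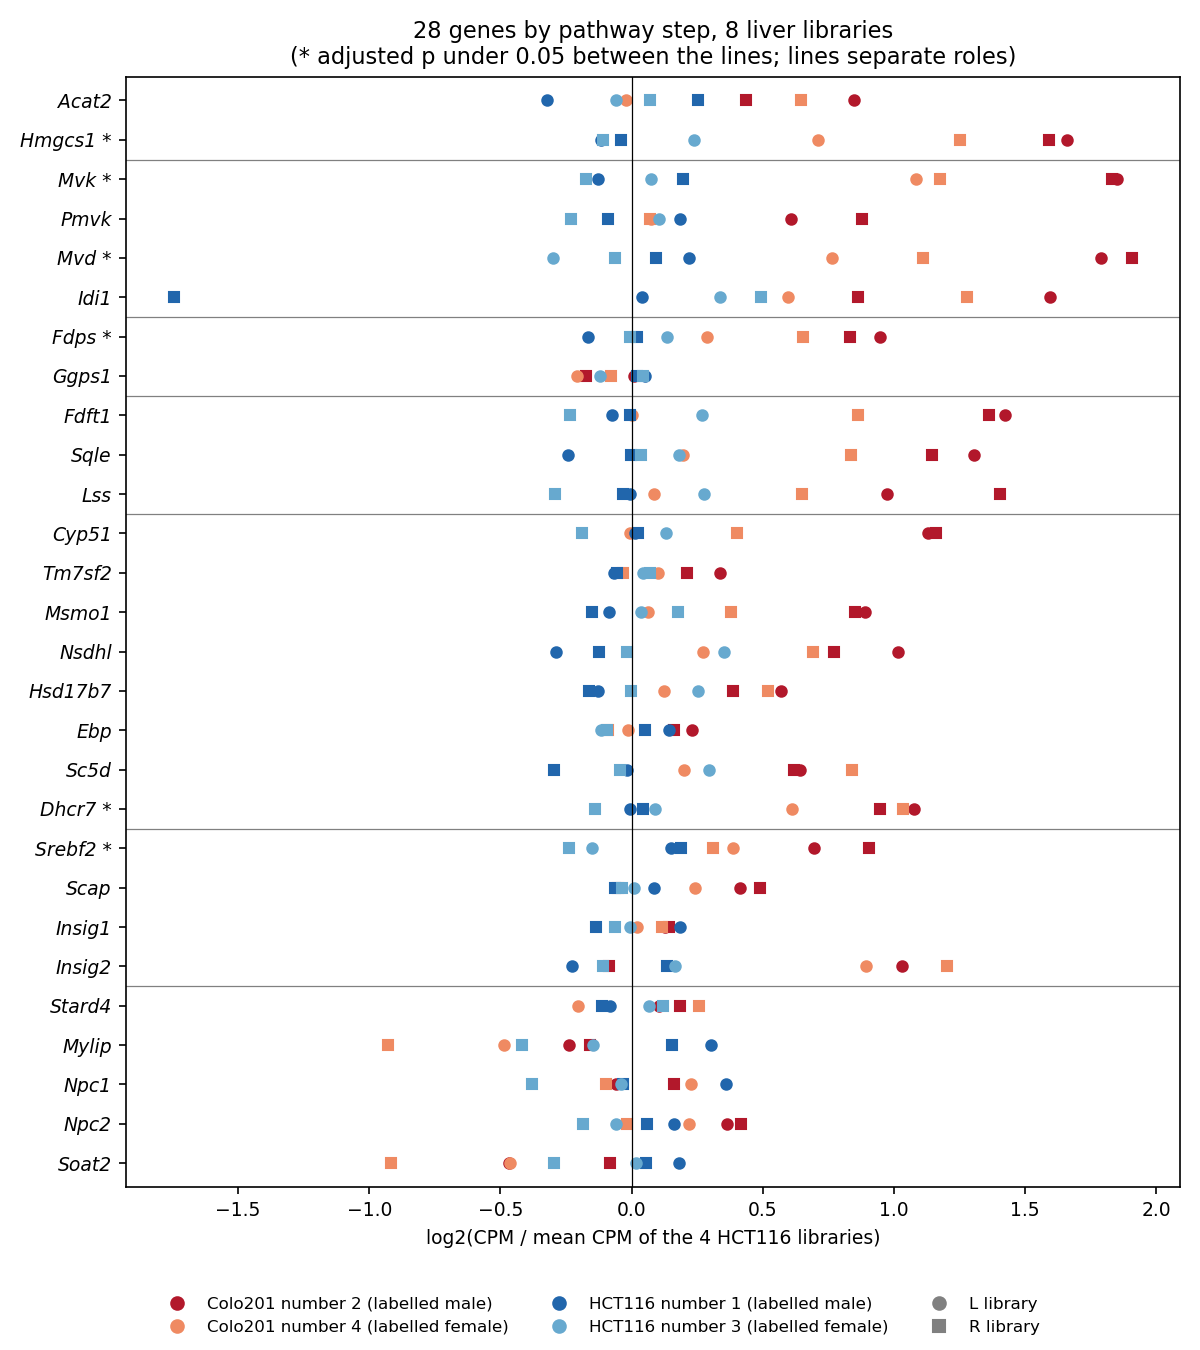
The log2 ratio of each library's CPM to the mean of the 4 HCT116 libraries, for the 28 genes in pathway order from top to bottom, with the called genes starred. Number 2 of Colo201 lies furthest to the right for most enzymes. Among the genes at the bottom, the Colo201 libraries lie on both sides of 0 for Stard4 and Npc1. They all lie left of 0 for Mylip and Soat2, and right of it for Npc2 except 4R.

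Among the 4 genes of SREBP-2 control 1 rose, Srebf2 itself. It stood at 105, 122, 85.1 and 80.8 CPM in Colo201 and at 72.2, 74.3, 58.7 and 55.2 CPM in HCT116. The groups did not overlap, and in each line the number labelled male lay above the number labelled female. The log2 fold change was 0.59 (SE 0.08, adjusted p = 0.0105, edgeR), and the call was lost without the sex label as a covariate (adjusted p = 0.103). Scap, the escort of SREBP-2, was at 140 to 204 CPM in Colo201 and 139 to 154 CPM in HCT116 (0.28, SE 0.10, adjusted p = 0.164). Srebf2 (ENSMUSG00000022463) lies on chromosome 15 from 82147181 to 82205379, and its annotated gene holds Mir33, which had 0 counts in these libraries of polyadenylated RNA.

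Neither of the paralogs Insig1 and Insig2, which retain Scap, passed with all libraries. Insig1, a direct SREBP target in many cell types, was at 290 to 315 CPM in Colo201 and 260 to 324 CPM in HCT116, and its log2 fold change, 0.10 (SE 0.09), did not pass (adjusted p = 0.534). Insig2, whose liver transcript is controlled differently, stood at 235, 214 and 264 CPM in Colo201 2L, 4L and 4R but at 108 CPM in 2R. HCT116 ranged from 98.2 to 129 CPM, so 2R lay inside that range and the other 3 Colo201 libraries above it. The log2 fold change of 0.82 (SE 0.23) did not pass with all libraries (adjusted p = 0.0861), but passed without 2R (1.04, adjusted p = 0.0147). The difference between the 2 paralogs' changes was not tested.

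None of the 5 genes of transport, receptor turnover and storage passed in edgeR, and their median log2 fold change was 0.08. Stard4, a cytosolic sterol carrier, was at 151 to 208 CPM in Colo201 and 161 to 189 CPM in HCT116 (0.10, adjusted p = 0.676). Npc1 (0.08, adjusted p = 0.807) and Npc2 (0.25, adjusted p = 0.124), which move cholesterol out of lysosomes, overlapped between the lines as well. Mylip, a ubiquitin ligase that degrades lipoprotein receptors and is induced by LXR, was at 5.62 to 9.59 CPM in Colo201 and 8.01 to 13.2 CPM in HCT116 (-0.42, SE 0.13, adjusted p = 0.104). Soat2, which esterifies cholesterol in hepatocytes, was at 50.3, 65.7, 50.5 and 36.9 CPM in Colo201 and at 78.9, 72.3, 70.4 and 56.7 CPM in HCT116. Only Colo201 2R reached the HCT116 range. Its log2 fold change of -0.46 (SE 0.14) did not pass in edgeR (adjusted p = 0.0979) and was the 1 lower call of DESeq2 (adjusted p = 0.023). At an unadjusted p under 0.05 edgeR had 2 of these 5 genes lower, Mylip and Soat2, and 1 higher, Npc2.

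Levels of different genes were compared per length, in the authors' FPKM. Over all libraries Insig1 (87.4 FPKM), Hmgcs1 (86.9 FPKM) and Ebp (79.9 FPKM) were the most abundant of the 28, and Lss (7.85 FPKM), Mylip (2.65 FPKM) and Ggps1 (1.27 FPKM) the least. In HCT116, Insig1 (85.4 ± 8.75 FPKM) and Ebp (78.9 ± 7.49 FPKM; SD, n = 4) led, within each other's spread, and Hmgcs1 came next at 50.003 ± 7.11 FPKM. In Colo201, Hmgcs1 led at 124 ± 33.9 FPKM, ahead of Insig1 (89.3 ± 4.98 FPKM) and Ebp (81.0 ± 8.18 FPKM). Its library 4L, at 79.0 FPKM, lay below every Insig1 library of Colo201, so the order of the means did not hold in each library. Mvk (7.56 ± 1.08 FPKM in HCT116) and Mvd (10.9 ± 1.67 FPKM), the genes with the largest log2 fold changes, ranked 23 and 18 of 28 by mean FPKM and stood at 21.2 ± 5.99 and 29.5 ± 10.9 FPKM in Colo201.

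By title number, the means of both Colo201 numbers lay above those of both HCT116 numbers for 20 of the 28 genes (22.8% of all genes tested) and below for 2, Ggps1 and Soat2 (21.9%). The 4 single libraries of Colo201 lay above those of HCT116 for 8 genes (28.6%, against 6.27% of all genes), and below for 0 (6.04%); the 8 were the 6 that rose together with Idi1 and Sqle. Within Colo201, number 2 had the higher mean for 26 of 28 genes, the exceptions being Insig2 and Npc1 (49.6% of all genes). The ratio of number 2 to number 4 was 1.91 for Cyp51, 1.87 for Mvd, 1.86 for Fdft1 and 1.75 for Lss. Within HCT116, number 1 had the higher mean for 14 of the 28 (50.6% of all genes). Colo201 2L held the highest value of the 8 libraries for 13 genes and 2R for 7. That count was not made over all genes, so it is not read as particular to the 28. With the L and R counts of each number added together, which leaves 1 residual degree of freedom, 0 of the 28 passed in edgeR. Of all 17669 genes, 0 were called higher and 3 lower in that fit, so the loss was not particular to these 28. The log2 fold changes of the 6 genes then ran from 0.59 to 1.48, with adjusted p of 0.102 to 0.155. If the numbers are the independent units, an exact permutation test of 2 numbers against 2 can reach no p below 0.333.

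The difference between the lines was next taken within each sex label, 2 libraries against 2. Among libraries labelled male, 4 of the 28 rose, Hmgcs1 (log2 fold change 1.71, adjusted p = 0.0323), Mvk (1.80, adjusted p = 0.0167), Mvd (1.69, adjusted p = 0.0167) and Msmo1 (0.99, adjusted p = 0.0455), or 14.3% against 0.102% of all genes called higher. At an unadjusted p under 0.05, 19 were higher and 0 lower (6.58% and 6.5% of all genes). Some or all of the 4 adjusted calls were lost when a library of this label was left out, which leaves 1 library against 2. Among libraries labelled female, 2 rose, Mvk (1.18, adjusted p = 0.0322) and Mvd (1.12, adjusted p = 0.0416), or 7.14% against 0.26%. These calls were lost when any single library was left out. Calls over all genes were not counted in such fits within a label, so the losses are not read as particular to the 28. Unadjusted, 7 were higher and 1 lower (7.49% and 6.62%). None was called lower under either label (0.13% and 0.232% of all genes). The median log2 fold change of the 28 was 0.68 under the label male and 0.30 under the label female, and that of all genes was 0.00 and 0.01.

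Whether the difference between lines depended on the label was tested by the interaction, taken as the line difference under the label female less that under the label male. None of the 28 passed in edgeR or limma voom, where 0.0283% of all genes did in edgeR (0.017% higher, 0.0113% lower), and DESeq2 called 1, Msmo1. The share of all genes that DESeq2 called for the interaction was not taken, so that call has no share to be read against. At an unadjusted p under 0.05 edgeR had 11 of the 28 with a smaller difference under the label female and 0 with a larger one (1.91% and 2.19% of all genes). These 11 were Hmgcs1, Mvk, Pmvk, Mvd, Fdps, Fdft1, Sqle, Lss, Cyp51, Msmo1 and Nsdhl. The lowest p was that of Msmo1 (interaction -0.87, SE 0.19, adjusted p = 0.777), which had a log2 fold change of 0.99 under the label male and 0.12 under the label female. Dhcr7 (-0.13) and Srebf2 (-0.09) had small interactions, with log2 fold changes of 0.99 and 0.86 for Dhcr7 and 0.63 and 0.54 for Srebf2. Label and title number cannot be told apart here.

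**Figure D4:**
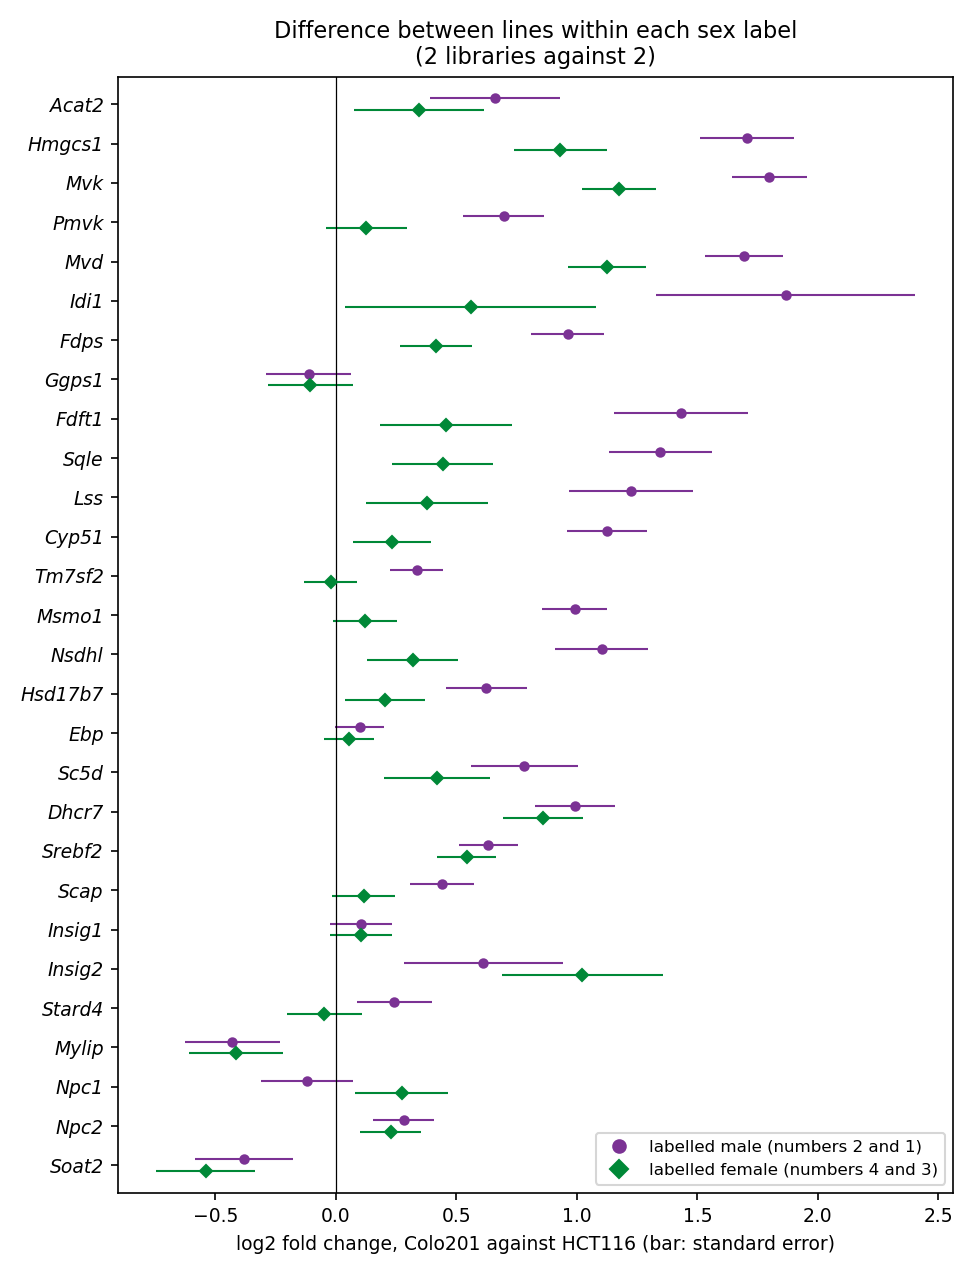
The log2 fold change between lines for the 28 genes within the libraries labelled male (circles) and labelled female (diamonds), with standard errors. For Cyp51 and Msmo1 the points lie apart, at 1.13 and 0.23 and at 0.99 and 0.12, whereas for Dhcr7 and Srebf2 they overlap within their errors.

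Between sex labels, with line as a covariate, 1 of the 28 was higher in libraries labelled male, Srebf2 (log2 fold change 0.41, SE 0.08, adjusted p = 0.0294, edgeR), where 1.96% of all genes were. That call was lost without Colo201 2R, 4L or 4R or HCT116 1L, 1R or 3L. Mvd (0.62, adjusted p = 0.052) and Mylip (0.50, adjusted p = 0.0745) did not pass. None was lower in edgeR (2.06% of all genes). At an unadjusted p under 0.05, 9 were higher and 0 lower (9.3% and 8.87% of all genes), and the median over the 28 was 0.20.

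Other genes of sterol and lipid handling were read from further lists, in edgeR at the same threshold. Over all genes, 2.48% were called higher and 2.3% lower, and 11.0% and 10.7% at an unadjusted p under 0.05. DESeq2 called 5.49% higher and 5.79% lower, and voom 2.85% and 2.82%. Of 10 genes of SREBP processing and sterol-regulated degradation, 1 fell, Pgrmc1 (-0.31, adjusted p = 0.0483), a membrane protein that binds haem, and 0 rose (1 higher and 3 lower at an unadjusted p under 0.05; DESeq2 0 and 2, voom 0 and 1). Rnf145 (-0.43, adjusted p = 0.0958) did not pass. Of 11 tested genes of the isoprenoid branch, 1 fell, Rabggtb (-0.44, adjusted p = 0.0477), a subunit of Rab geranylgeranyl transferase, and 0 rose (2 and 2 unadjusted; DESeq2 0 and 1, voom 0 and 1). Pdss2 (0.34), Icmt (-0.19) and Dhdds (0.31) had adjusted p of 0.131 to 0.209. The median log2 fold changes of these lists were -0.08 and -0.07.

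Of 15 further genes of sterol uptake, transport and storage 0 passed (2 higher and 2 lower unadjusted; DESeq2 2 and 1, voom 0 and 1). Stard5 stood at -0.33 (adjusted p = 0.0636), Scarb1, the HDL receptor, at 0.37 (adjusted p = 0.0764) and Nceh1 at -0.20 (adjusted p = 0.229). Of 7 genes of LXR and sterol efflux 0 passed (2 higher and 0 lower unadjusted; DESeq2 2 and 0, voom 1 and 0), and Nr1h3, which encodes LXR alpha, stood at 0.34 (adjusted p = 0.0509), Nr1h2 at 0.31 (adjusted p = 0.07), Abcg8 at 0.21 (adjusted p = 0.498) and Abca1 at -0.18 (adjusted p = 0.528). Of 14 genes of SREBP-1 lipogenesis 3 rose (2.48% of all genes), the desaturase Fads1 (0.42, adjusted p = 0.0162), the elongase Elovl6 (0.70, adjusted p = 0.038) and ATP citrate lyase Acly (0.58, adjusted p = 0.0484), which makes cytosolic acetyl-CoA. Fasn stood at 0.58 (adjusted p = 0.0632), and 0 of the 14 fell (7 higher and 2 lower unadjusted; DESeq2 6 and 0, voom 3 and 0). The median of that list was 0.23.

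Hepatic cholesterol synthesis follows a daily rhythm, and clock genes were read for that reason. Of 14 clock genes 10 did not pass, 1 rose (2.48% of all genes), Nr1d1 (1.32, adjusted p = 0.0124), and 3 fell (2.3% of all genes), Cry1 (-0.90, adjusted p = 0.0336), Nfil3 (-1.14, adjusted p = 0.0381) and Nr1d2 (-0.38, adjusted p = 0.0455). Unadjusted, 3 were higher and 7 lower (DESeq2 2 and 7, voom 1 and 3). Nr1d1 ranged from 84.2 to 228 CPM in Colo201 and from 30.0 to 76.2 CPM in HCT116. Their part in the results above was not tested. Summed markers overlapped between the lines for all 6 cell types, at 190 to 536 against 315 to 479 CPM for Kupffer cells (9 genes), 156 to 272 against 183 to 296 CPM for sinusoidal endothelium (7 genes), 243 to 250 against 179 to 260 CPM for stellate cells (7 genes), 27.8 to 63.0 against 29.6 to 38.7 CPM for cholangiocytes (6 genes) and 1.005 to 3.18 against 1.20 to 2.99 CPM for neutrophils (6 genes), in Colo201 and HCT116 in turn. In edgeR 2 of 7 hepatocyte markers rose (2.48% of all genes) and 0 fell (2.3%), and 3 were higher and 1 lower unadjusted (11.0% and 10.7%). DESeq2 called 2 of these markers higher and 1 lower, and voom 2 and 0. Their median log2 fold change was -0.017. Of 7 stellate cell markers 1 rose and 0 fell (2 and 2 unadjusted; DESeq2 2 and 2, voom 1 and 1). In edgeR 0 markers of the other lists passed (0 Kupffer, 1 endothelial, 1 cholangiocyte and 0 neutrophil genes at an unadjusted p under 0.05; 0 in DESeq2 and voom). The neutrophil gene Camp was at 0 in every library and Cftr, of the cholangiocyte list, in HCT116 3L. Without Colo201 4R, 5 of the 28 genes still passed, all of the 6 but Fdps, and 267 of all 17669 genes were called higher.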

How the data were processed

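In 8 liver libraries from xenograft hosts, RNA was measured by sequencing of polyadenylated RNA with a stranded TruSeq kit, per the labels' protocols. Per the submitters' processing notes, the tools were HISAT2 and StringTie and the build GRCm38 (mm10). Their versions, the annotation and how strand was handled: not given in the sources used here. The authors' estimated counts, as deposited, are whole numbers; 43.9 to 45.0% of the values from 1 to 16 were multiples of 4 (25% by an even spread), and they were used as they stand. The authors also deposited FPKM, used for levels between genes and in alternatives. Of 55401 identifiers 55141 matched a symbol in GENCODE vM21 (GRCm38); the 260 others held 0.0216 to 0.0343% of counts.

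Genes were filtered with filterByExpr on the 4 combinations of line and sex label, scaled by TMM and fitted by glmQLFit and glmQLFTest (edgeR 4.0.16, R 4.3.3; 17669 genes). The lines were compared with sex label as covariate and the labels with line (5 residual degrees of freedom); contrasts within labels and the interaction came from 4 group means (4 degrees). P-values are two-sided, adjusted by Benjamini-Hochberg over all genes, with a threshold of 0.05. SE is the log2 fold change over the root of F. Alternatives used DESeq2 1.42.0, limma 3.58.1, other scalings, filters and thresholds, log2 FPKM with a pseudocount of 1 or 0.1, counts divided by 4, and libraries left out or summed by number. The fits were tested on simulated data. The 28 genes and the lists were chosen with earlier results of these data known. The text names all 28 genes and up to 4 genes per further list by smallest p, of which some are not reported here.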

Additional observations from a re-analysis of the deposited data

How the results depend on the processing

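The 6 genes that rose between the lines were 3 at an adjusted p under 0.01 (Mvk, Mvd and Dhcr7), 15 with DESeq2 and 0 with L and R summed, and 4 to 7 under the other alternatives that kept all libraries. With L and R summed, 0 of all 17669 genes were called higher. The count of genes called lower, 0, became 1 with DESeq2. With each library left out in turn, 5 to 9 were higher and 0 lower. Over all 17669 genes, 89 to 267 were higher and 93 to 282 lower in those fits. The median log2 fold change of the 28 genes ran from 0.50 to 0.59 with all libraries and from 0.52 to 0.68 with 1 left out. Of 588 recomputed values for single genes (28 genes under 21 alternatives), 550 kept direction and call, 18 lost and 18 gained the call, and 2 changed sign, both of Npc1, at -0.036 without Colo201 4L and -0.027 without HCT116 3R, in a range of -0.036 to 0.20 with 1 library left out.

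Within the label male the count of 4 became 0 at an adjusted p under 0.01, 15 with DESeq2, 7 with voom, 2 on log2 FPKM with either pseudocount and 11 on log2 FPKM without a filter. It was smaller with any library of that label left out, which leaves 1 library against 2. Within the label female the count of 2 became 0 at an adjusted p under 0.01 and 6 with DESeq2, and the calls were lost with any library left out. The interaction called 0 genes, and 1 lower with DESeq2. Between labels the 1 gene became 0 at an adjusted p under 0.01 and on log2(FPKM + 1), 4 with DESeq2, 2 with upper-quartile scaling, voom, a filter of 1 CPM in 4 libraries, log2(FPKM + 0.1) or counts divided by 4, and 0 to 1 with a library left out. How many of all genes were called under these alternatives was not counted within labels, for the interaction or between labels. These shifts are therefore not read as particular to the 28 genes, and their cause was not tested. Without a filter on FPKM, limma warned that most genes had no residual spread and that its estimate is then unreliable. No scaling moved the median of all genes by 0.1. No paired analysis was possible because the lines share no title number. Depth was nearly even, and the least abundant of the 28, Ggps1, still had 417 counts per library on average.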

Other observations

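Protein-coding genes that start on the other strand within 1000 bases of the start of any of the 28 genes were looked up in GENCODE vM21. Only the outermost annotated start of each gene was used, and the search was made after the results above were known. There were 5 such pairs. Mmab, which encodes an enzyme of vitamin B12 metabolism, starts 209 bases from Mvk in a head-to-head arrangement. Mmab stood at 47.4, 54.3, 30.9 and 40.9 CPM in Colo201 and at 28.1, 33.4, 29.8 and 25.1 CPM in HCT116. Colo201 4L lay inside the HCT116 range and the other 3 above it, and the log2 fold change of 0.56 (SE 0.13) did not pass in edgeR (adjusted p = 0.0538), against 1.49 for Mvk. Cetn2, a centriole protein, starts 146 bases from Nsdhl and stood at 12.02 ± 0.814 CPM in Colo201 and 9.24 ± 0.882 CPM in HCT116 (SD, n = 4; log2 fold change 0.38, adjusted p = 0.0896). Nadsyn1, head to head with the outermost start of Dhcr7 at 296 bases, did not pass (-0.14 on the log2 scale, adjusted p = 0.403), where Dhcr7 stood at 0.93. The Dhcr7 promoter printed above belongs to another start, further downstream. Isca2 beside Npc2 (-0.09, adjusted p = 0.683) and Arid4b, which overlaps Ggps1 (0.26, adjusted p = 0.63), did not pass.

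No library of either line stood out in any of the 28 genes by Dixon's criterion for groups of 4 (56 groups examined), including HCT116 1R for Idi1.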
